A study of Rattus norvegicus with 9 samples.

Results

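The transcriptome of neural stem cells (NSCs) kept in differentiation medium alone, the Con group, was described from its 3 RNA-seq libraries, replicates 1, 2 and 3, out of 9 libraries in the series. The group was chosen by its sample title, and all 23953 genes of the count table were ranked in it. The labels give rat spinal cords as the tissue and neural stem cells as the cell type. According to the study's methods, the cells came from newborn rats, were expanded with EGF and basic FGF, and were then moved to a differentiation medium (DMEM/F12) that held B-27, N-2, FGF, basic FGF and fetal bovine serum. To that medium the other groups had exosomes added, vesicles shed by bone marrow stromal cells that carried an empty lentivirus (Exo) or a Wnt5a lentivirus (pLV-Exo-Wnt5a), and with 3 libraries each they serve here only as a scale for the spread between replicates. All samples carry the same batch label, and nothing in the labels says that the replicates were separate cultures or animals, so their spread may be technical in part. Gene symbols and NCBI numbers in the table are those of the mouse, whereas the organism is labelled as rat.

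NSCs are dividing cells that keep the transcription factor Sox2 and the intermediate filament nestin (Nes), and that can form neurons, astrocytes and oligodendrocytes once growth factors are reduced. Cells taken from different levels of the neural tube keep transcription factors of their origin, with Emx genes in the telencephalon and Hox genes in the hindbrain and spinal cord. Bulk libraries hold the RNA of all cells of a culture, and more cells of a type and more RNA per cell cannot be told apart in them.

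The Con libraries held 39929409, 38952929 and 32765138 counts. Levels are given as CPM, a gene's counts scaled to equal library totals, after TMM normalization, which also corrects the library total for its composition, and values of the 3 libraries are always listed in the order of replicates 1, 2 and 3. A CPM value is a share of reads and grows with the length of the transcript, and no transcript lengths were at hand, so ranks are ranks of read share and levels of different genes are not compared. In these libraries 12484 genes reached 1 CPM in every library, of which 12000 were protein-coding and 484 non-coding. A count of 3, the limit that a count of 0 allows, was 0.0771, 0.0763 and 0.0901 CPM, which covers counting error only. Replicate 1 stood apart from the others. The median absolute log2 difference over 12934 genes with a mean of at least 1 CPM was 0.213 between replicates 1 and 2, 0.259 between replicates 1 and 3, and 0.0984 between replicates 2 and 3. For this reason single values are printed for all 3 libraries.

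The 20 genes with the highest read share took 8.08%, 7.59% and 7.68% of the counts, a mean of 7.79% ± 0.260 (SD, n = 3). First came Eef1a1 (NCBI gene number 13627), the elongation factor that brings tRNA to the ribosome, at 7471, 7784 and 7450 CPM. Gm26917, a non-coding gene, ranked 2 and spread more widely, at 8591, 5717 and 7422 CPM, with replicate 2 the lowest. The tubulin genes Tuba1a, Tubb2b and Tubb5, which form the microtubules of growing neurites, ranked 3, 9 and 10, with means of 7185 ± 595 CPM, 3334 ± 279 CPM and 2794 ± 298 CPM (SD, n = 3). Tubulin and actin genes have near-identical copies. The sources used here name different tools for the processing, so how reads shared between copies were counted is not known.

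Scd2, a fatty acid desaturase of the brain, was measured at 6770, 7206 and 7085 CPM and Apoe, the lipid carrier that astrocytes secrete, at 5992, 4782 and 4848 CPM. Genes of glial cells were also among them, namely Gfap, the astrocyte intermediate filament, at 3025, 2239 and 2272 CPM, and Bcan, a proteoglycan of the brain matrix, at 2162, 1867 and 1831 CPM. Ckb, the brain creatine kinase, was measured at 5406, 4407 and 4176 CPM and Nnat, an imprinted gene of the developing brain, at 2148, 1804 and 1739 CPM. In Gfap, Apoe, Ckb, Bcan and Nnat replicate 1 was the highest library and replicates 2 and 3 lay close together. The mitochondrial gene COX1, a subunit of cytochrome oxidase, went the other way, at 3895, 6544 and 6962 CPM. Also in the first 20 were Eef2, Actg1, Actb, Hsp90ab1, Hspa8, Ftl1 and Psap, with means between 2061 (Psap) and 5503 CPM (Eef2).

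**Figure D1:**
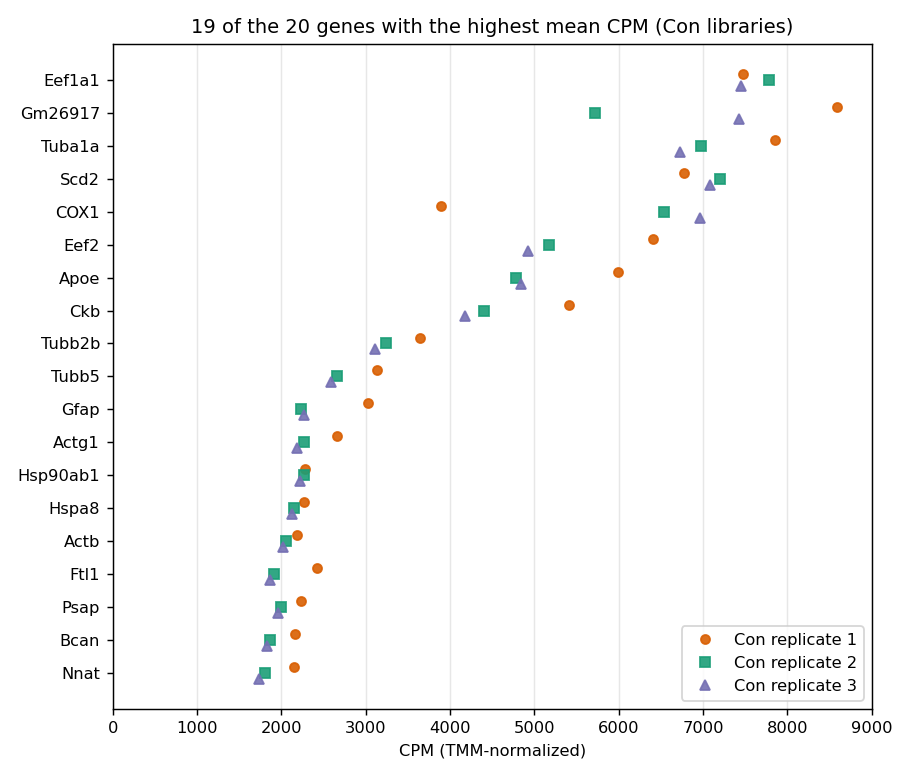
The plot shows 19 of the 20 genes with the highest mean CPM on a linear axis, with 1 symbol per Con library. COX1 in replicate 1 (3895 CPM) lies apart from replicates 2 and 3 (6544 and 6962 CPM), and Gm26917 is spread over all 3 libraries.

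Markers of progenitors, neurons, astrocytes and the oligodendrocyte lineage were all measured in the Con libraries. Of the 16 genes listed for neural stem cells and radial glia, 16 had a mean of at least 1 CPM. Sox2 was measured at 400.3, 464 and 504 CPM and Nes at 86.3, 119 and 110.0 CPM, in both cases with replicate 1 the lowest. Vim, the intermediate filament of radial glia and immature astrocytes, was highest in replicate 1, at 1957, 1609 and 1551 CPM. Fabp7, the fatty acid binding protein of radial glia, gave 469.9, 572 and 607 CPM, and Pax6, a transcription factor of dorsal progenitors, gave 31.4, 41.3 and 40.7 CPM. The summed level of the list was 4976, 4959 and 4987 CPM, which hardly moved between libraries although single members did. Replicate 1 was the highest library in 8 and the lowest in 7 of the 16 members. The sum rested in part on Vim, without which its mean was 3269 CPM against 4974 CPM. Genes of committed progenitors were measured too, with Btg2, an antiproliferative gene, at 150.0, 136 and 142 CPM, and the proneural gene Neurog2 at 17.99, 16.8 and 14.5 CPM, while Neurog1 had 0, 1 and 0 counts. Eomes, which marks intermediate progenitors of the cortex, was low, at 2.67, 3.56 and 3.90 CPM.

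All 20 listed neuronal genes had a mean of at least 1 CPM. Tubb3, the neuronal beta-tubulin, gave 1981, 1700 and 1641 CPM, and Mapt, the microtubule protein tau, 1725, 1837 and 1778 CPM. Rbfox3, which encodes the nuclear protein NeuN of mature neurons, differed little between libraries, at 85.3, 87.6 and 85.1 CPM. Map2, the dendritic microtubule protein, was not, at 91.6, 148 and 183 CPM, and neither was Dcx, a microtubule protein of migrating neurons, at 49.99, 75.2 and 96.6 CPM. In Map2, Dcx, Elavl4 (8.92, 15.4 and 17.6 CPM), Snap25 (22.5, 34.5 and 40.3 CPM) and Syt1 (91.8, 147 and 159.9 CPM) replicate 1 was the lowest and replicate 3 the highest library. Elavl4 encodes an RNA-binding protein of neurons, Snap25 a protein of the vesicle fusion complex and Syt1 a calcium sensor of vesicle release. Of the neurofilament genes, Nefl was at 35.5, 45.02 and 46.3 CPM, Nefm at 13.96, 18.3 and 15.4 CPM and Nefh, the subunit of mature axons, at 1.52, 1.75 and 1.50 CPM.

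Of the 20 astrocyte genes, 19 had a mean of at least 1 CPM, all but Gjb6. Besides Gfap and Apoe, the folate enzyme Aldh1l1 was measured at 1018, 837 and 811 CPM, the glycolytic enzyme Aldoc at 1214, 980.1 and 972 CPM, and glutamine synthetase (Glul) at 1804, 1710 and 1659 CPM. Of the gap junction genes, Gja1 (connexin 43) gave 187, 207 and 234 CPM and Gjb6 (connexin 30) 1.00, 0.991 and 0.811 CPM. Of the end-foot genes, the water channel Aqp4 gave 11.8, 14.2 and 17.6 CPM, Mlc1 755, 623 and 622 CPM and Hepacam 195, 175 and 172 CPM. S100b, a calcium-binding protein, gave 10.8, 11.2 and 10.8 CPM. The glutamate transporter Slc1a2 was lowest in replicate 1, at 68.8, 85.8 and 104 CPM. The list summed to 16721, 13915 and 13986 CPM, highest in replicate 1, where 12 of 19 members had their highest value, against 69.9% of all genes at 100 CPM or more and 44.3% of all genes.

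For the oligodendrocyte lineage, genes of early and late stages were listed apart. All 12 listed genes of oligodendrocyte precursors had a mean of at least 1 CPM. Pdgfra, the growth factor receptor of precursors, gave 86.03, 118 and 128 CPM, the proteoglycan Cspg4 107, 101 and 88.4 CPM, and the transcription factors Olig1, Olig2 and Sox10 1128, 1000 and 989 CPM, 559.7, 513 and 505 CPM and 266, 206 and 213 CPM. Gpr17, a receptor of cells that have just begun to differentiate, was measured at 685, 697 and 637 CPM. Of 11 genes of myelinating cells in the table, 7 reached a mean of 1 CPM, and Ermn was not analysed here. Mbp, myelin basic protein, gave 167, 153 and 156 CPM, whereas the late myelin genes Mog, Mobp and Opalin gave 0, 0.102 and 0.120 CPM, 0.283, 0.585 and 0.120 CPM and 0.463, 0.127 and 0.150 CPM. Mag, a glycoprotein of the inner myelin layer, gave 17.5, 13.3 and 14.4 CPM. Myrf, the transcription factor that turns on myelin genes, was at 146, 128 and 121 CPM. The late genes Mog, Mobp and Opalin were below 1 CPM in every library, and Mbp, Mag, Myrf and Cnp (864, 747 and 716 CPM), an enzyme of myelin-forming cells, were above it in every library.

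Many listed genes of other cell types of the cord or its coverings left few reads. For microglia, 10 of 18 genes in the table reached a mean of 1 CPM, and the list summed to 83.95, 81.4 and 82.6 CPM. Aif1, which encodes Iba1, was at 0.463, 0.407 and 0.751 CPM, P2ry12 had 0, 12 and 1 counts, Tmem119 14, 1 and 2 counts, and Ptprc had 0, 1 and 1 counts. The complement gene C1qa gave 3.29, 4.09 and 3.72 CPM. Most endothelial genes were near the detection limit, with Cdh5 at 0, 0 and 0 counts, Cldn5 at 0, 1 and 1 counts and Pecam1 at 0.257, 0.203 and 0.420 CPM, and Kdr, at 5.01, 6.61 and 4.68 CPM, was the one member over 1 CPM. Among mural genes Notch3 gave 247, 193 and 199.9 CPM and Pdgfrb 19.9, 13.96 and 17.1 CPM, but Rgs5, Kcnj8 and Abcc9, which mark pericytes more narrowly, were at or below 0.257 CPM. Of the 12 fibroblast genes, 9 reached a mean of 1 CPM. The collagens Col1a1, Col1a2 and Col3a1 gave 3.06, 1.35 and 1.32 CPM, 3.14, 2.29 and 1.62 CPM and 3.14, 2.34 and 2.73 CPM. The proteoglycan Dcn gave 1.88, 3.25 and 2.91 CPM. Higher values were found for Fn1, at 41.5, 48.6 and 42.0 CPM, Fbln1, at 36.3, 28.8 and 31.5 CPM, and Col6a1, at 5.63, 9.08 and 7.78 CPM. Thy1, which neurons express as well, gave 142, 125 and 120.1 CPM. Foxj1, the regulator of motile cilia, was measured at 43.2, 34.5 and 35.4 CPM, but the ependymal genes Ccdc153 and Tmem212 had 1, 1 and 2 counts and 0, 1 and 0 counts, and Rarres2 gave 0.848, 0.661 and 0.841 CPM. The Schwann cell gene Prx gave 4.29, 3.92 and 3.57 CPM, Pmp22, a membrane protein also made elsewhere, 9.84, 9.51 and 8.32 CPM, and the neurotrophin receptor Ngfr 1.34, 1.63 and 1.44 CPM. Of the choroid plexus genes Ttr had 1, 5 and 1 counts, Kl 2, 4 and 1 counts, Folr1 gave 0.745, 0.356 and 0.420 CPM, and the water channel Aqp1 1.93, 1.12 and 0.931 CPM. The globin genes Hba-a1, Hba-a2 and Hbb-bs had 6, 2 and 0 counts, 0, 4 and 12 counts and 13, 0 and 2 counts. Of these lists, Fcrls, Siglech, Tek and Hbb-bt were not analysed here.

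**Figure D2:**
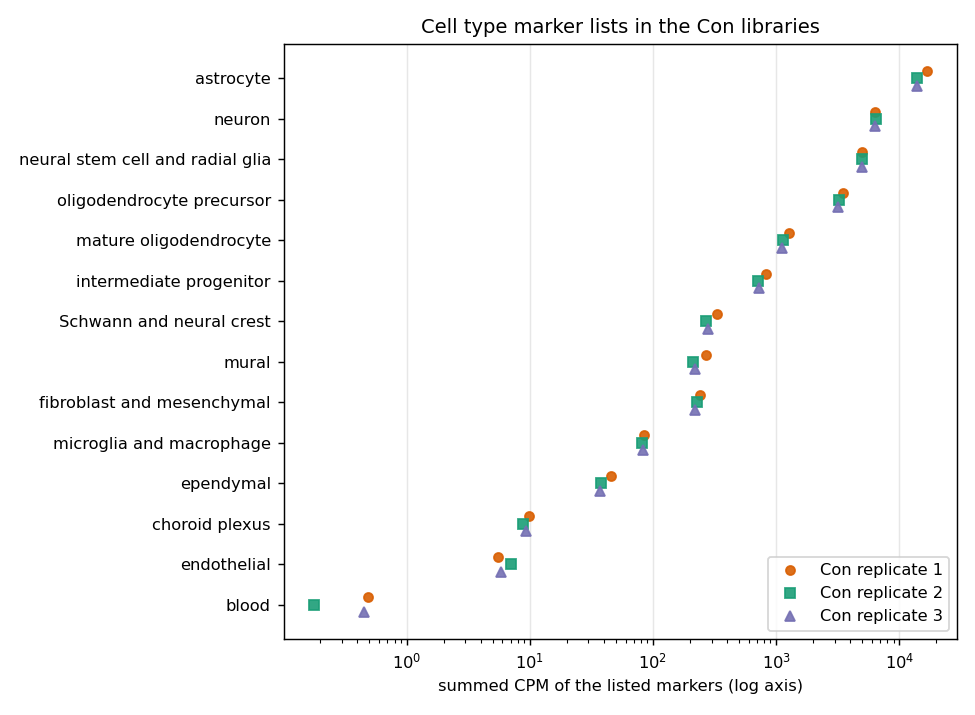
The plot gives the summed CPM of each cell type marker list on a log axis, with 1 symbol per Con library. Lists differ in their number of genes and in transcript length, so a position is compared between libraries and not between lists, and the astrocyte symbol of replicate 1 (16721 CPM) lies above those of replicates 2 and 3.

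Every listed gene of the telencephalon was measured, and smaller shares of the lists for other regions. All 18 listed genes of the dorsal telencephalon and all 15 of the ventral telencephalon had a mean of at least 1 CPM. These lists were chosen with earlier results of these data known, so the counts only describe the listed genes. Whether the members are also expressed in other regions was not examined. Emx1 and Emx2, which pattern the cortex, gave 13.6, 14.03 and 13.8 CPM and 22.5, 26.7 and 24.9 CPM, and Lhx2, which specifies cortical fate, 178, 177 and 182 CPM. Genes of cortical projection neurons were present, with Tbr1 of deep layers at 59.6, 60.8 and 65.4 CPM and Neurod6 at 35.3, 54.1 and 63.1 CPM. Bcl11b, a factor of neurons that project below the cortex, gave 36.9, 59.4 and 64.8 CPM, and Cux2 of upper layers gave 63.6, 63.4 and 61.3 CPM. In Tbr1, Neurod6 and Bcl11b replicate 1 was the lowest library and replicate 3 the highest, but every library was far above the floor.

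Ventral genes were measured beside them. Dlx1 and Dlx2, which drive the formation of forebrain interneurons, gave 63.5, 66.6 and 71.9 CPM and 48.97, 40.6 and 43.9 CPM, Lhx6, a factor of interneurons from the medial ganglionic eminence, 51.97, 49.1 and 49.97 CPM, and Nkx2-1, which acts before it, 9.13, 6.64 and 6.91 CPM. Gsx2 of the lateral ganglionic eminence was at 6.99, 5.97 and 5.98 CPM. Dlx5 gave 8.35, 8.08 and 7.33 CPM, and Meis2, a factor of striatal and other neurons, 86.9, 122 and 129 CPM, lowest in replicate 1. Dlx6os1 (2.52, 3.13 and 4.26 CPM) lies antisense to Dlx6 (1.11, 1.07 and 1.32 CPM), and since the use of strand in the counting is not given, their reads may not be told apart. In the list for diencephalon and midbrain, 5 of 16 genes reached a mean of 1 CPM. Tcf7l2, which acts in Wnt signaling also outside the thalamus, gave 38.3, 33.1 and 34.1 CPM and Otx2 gave 7.02, 7.07 and 7.90 CPM. Irx1 gave 5.96, 3.48 and 4.47 CPM, En2 1.18, 1.09 and 0.991 CPM and Barhl2 2.24, 2.21 and 2.40 CPM, and Barhl1 had 4, 5 and 0 counts. Lmx1a, a midbrain factor, gave 0.437, 0.254 and 0.300 CPM, while En1, Lmx1b, Pitx3 and Foxa2 had at most 14 counts in any library.

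Hox genes were near the detection limit, although the labels give spinal cord as the tissue. Of 39 Hox genes, 12 are listed in the table, which holds no gene with 0 counts in all 9 libraries, and the other 27 were not analysed here. Any count at all in a Con library was found for 6 of them. Hoxb13 had the highest values, with 5, 0 and 4 counts, and the other Hox genes had at most 1 count in a Con library. Together the listed Hox genes had 14 counts over the 3 libraries. In the Exo and pLV-Exo-Wnt5a libraries 1 Hox gene, again Hoxb13, had more than 5 counts in a library, with at most 22. The classes of spinal neurons gave 1 of 19 genes in the table with a mean of at least 1 CPM, Tal1, a factor of a ventral interneuron class and of blood cells, at 0.951, 1.25 and 1.89 CPM. Isl1 and Isl2 of motor neurons gave 0.360, 0.890 and 0.510 CPM and 0.129, 0.102 and 0.120 CPM, and Lhx3 had 0, 0 and 1 counts. Mnx1, Evx1, Evx2, Lbx1 and Tlx1 were not analysed here.

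A mean of at least 1 CPM was reached by 6 of 16 genes in the table for the dorsoventral progenitor domains of the cord, and Nkx2-9, Msx2, Ptf1a and Atoh1 were not analysed here. Olig2 and Nkx2-2 (62.9, 56.6 and 49.5 CPM) are also genes of oligodendrocyte precursors in all regions, and Gsx1 (5.19, 3.43 and 3.87 CPM) is also a ventral telencephalic gene. The others were Dbx2 at 35.8, 33.05 and 33.8 CPM, Nkx6-2 at 3.37, 2.06 and 1.74 CPM and Shh, the ventral signal, at 1.62, 1.27 and 0.631 CPM. Nkx6-1, which covers the ventral domains of the cord, had 0, 0 and 0 counts, Irx3 gave 0.591, 0.559 and 0.210 CPM, and Pax3 and Pax7 of the dorsal cord gave 0, 0.0508 and 0.0300 CPM and 0.231, 0.229 and 0.150 CPM. No listed Hox gene was above 0.129 CPM in any of the 3 libraries, so the labelled region did not match its defining genes. The telencephalic genes were measured in all 3 libraries, but their lists were chosen with earlier results known. The region that the cells came from was not tested. The Con libraries are therefore described by their genes and not as spinal cord cells.

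**Figure D3:**
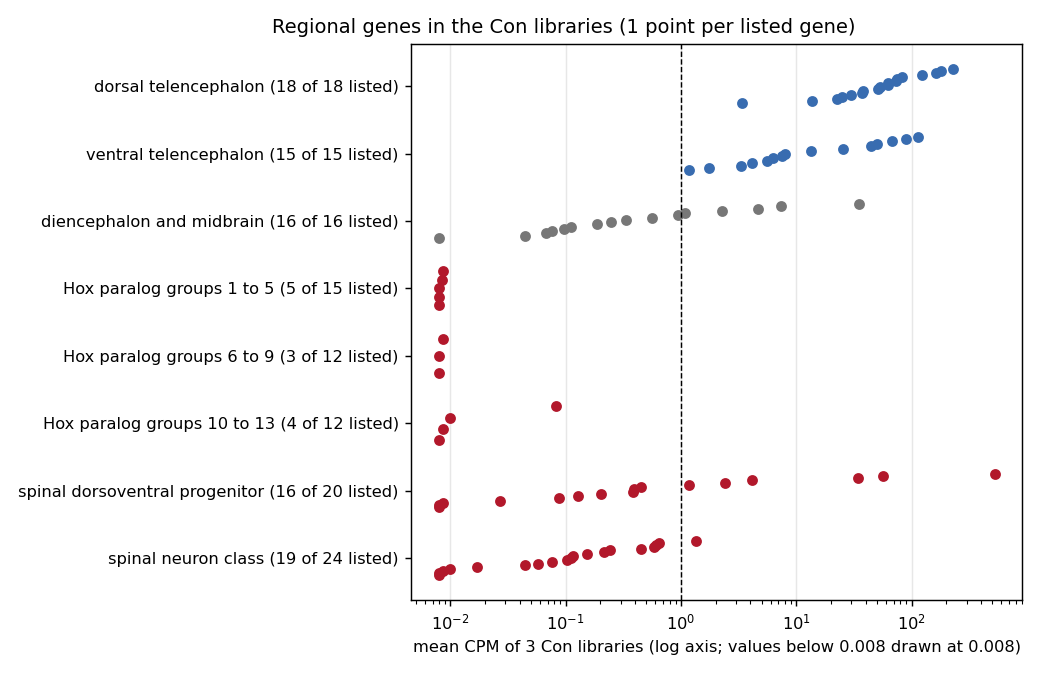
Each point is a listed gene, placed by its mean CPM over the 3 Con libraries on a log axis, with means too low for the axis, 0 included, drawn at its left end, and the dashed line marks 1 CPM. All 18 dorsal and 15 ventral telencephalic genes lie to the right of the line, and all 12 listed Hox genes lie to its left.

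Transmitter genes of the forebrain were measured, both excitatory and inhibitory. Slc17a7, the vesicular glutamate transporter of cortical neurons, was at 107, 98.1 and 100.1 CPM. Slc17a6, the transporter used by most subcortical and spinal excitatory neurons, gave 1.21, 2.36 and 3.39 CPM and Slc17a8 0.129, 0.330 and 0.811 CPM. Slc17a6 was lowest in replicate 1 and highest in replicate 3, a ratio of 2.81, while Slc17a7 varied by a ratio of 1.09. For GABA, the synthetic enzyme Gad1 gave 96.3, 116 and 121 CPM, Gad2 3.73, 6.33 and 7.54 CPM, and the vesicular transporter Slc32a1 62.98, 63.5 and 57.98 CPM.

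Most genes that define other transmitter systems had few reads. Slc6a5, the glycine transporter that defines the glycinergic neurons of cord and brainstem, had 0, 0 and 0 counts, although the glial glycine transporter Slc6a9 gave 136, 109 and 116 CPM. For acetylcholine, Chat had 2, 1 and 4 counts, Slc5a7 1, 2 and 5 counts and Slc18a3 gave 0.360, 0.280 and 0.510 CPM, whereas Ache, the enzyme that breaks it down, gave 17.6, 14.1 and 15.97 CPM. Th, the first enzyme of catecholamine synthesis, gave 0.797, 0.814 and 0.300 CPM, Dbh had 0, 1 and 11 counts, and Pnmt 2, 0 and 0 counts. Ddc, shared by catecholamine and serotonin synthesis, gave 1.31, 0.966 and 1.50 CPM. Tph1 had 1, 0 and 0 counts, Tph2 11, 5 and 6 counts and the serotonin transporter Slc6a4 0.0514, 0.280 and 0.0601 CPM, and Fev was not analysed here. Slc6a5, Chat, Slc5a7, Slc18a3, Th, Dbh, Tph1, Tph2 and Slc6a4 were below 1 CPM in every library.

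Peptide and calcium-binding genes of interneurons were measured unevenly. Sst (somatostatin) was at 42.1, 37.7 and 35.7 CPM, Npy (neuropeptide Y) at 17.2, 13.9 and 11.9 CPM, and Calb2 (calretinin) at 27.4, 24.99 and 24.3 CPM. Reln, the secreted protein that orders cortical layers, gave 159.7, 200.5 and 192 CPM and Nos1, the neuronal nitric oxide synthase, 42.2, 48.5 and 41.3 CPM. Vip was at 0.334, 0.432 and 0.541 CPM, Cck (cholecystokinin) at 12.6, 10.3 and 10.9 CPM and Pvalb, the parvalbumin of fast-spiking interneurons, at 2.31, 1.30 and 2.22 CPM. Of the 18 genes of this list 13 had a mean of at least 1 CPM.

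Cell cycle genes were measured in every library. All 18 listed genes of DNA replication had a mean of at least 1 CPM, among them Pcna, the replication clamp, at 49.8, 54.9 and 57.4 CPM, the helicase subunits Mcm2, Mcm3, Mcm4 and Mcm7 at 44.6, 33.2 and 35.5 CPM, 31.2, 28.3 and 25.5 CPM, 9.97, 11.8 and 12.8 CPM and 79.6, 71.3 and 64.7 CPM, and Rrm2, which makes deoxynucleotides, at 26.9, 29.1 and 29.01 CPM. Of 20 genes of G2 and M phase, 17 reached a mean of 1 CPM. Cdk1, the kinase that starts mitosis, gave 18.8, 16.1 and 19.9 CPM, Ccnb1 14.7, 18.5 and 17.3 CPM, Ccnb2 14.1, 13.2 and 13.9 CPM and Cdc20 28.1, 28.1 and 25.6 CPM. Mki67, the gene of the proliferation antigen Ki67, was low at 1.03, 0.763 and 1.23 CPM, and Top2a, which untangles DNA before division, was at 3.03, 3.69 and 5.13 CPM. The list summed to 229, 226 and 227 CPM, with an SD of 1.48 CPM (n = 3). The motor protein Kif11 and the spindle protein Nusap1 differed between libraries by ratios of 3.89 and 2.73, both lowest in replicate 1.

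Genes that hold cells out of the cycle were measured as well. Cdkn1a (p21) gave 82.05, 72.02 and 71.7 CPM, Cdkn1b (p27) 94.98, 109 and 141 CPM and Cdkn1c (p57) 155, 117 and 114 CPM, whereas Cdkn2a, a gene of senescence, gave 3.78, 2.39 and 3.63 CPM. Rbl1, a relative of the retinoblastoma protein, gave 1.44, 2.42 and 4.26 CPM. Among G1 genes, Ccnd1 gave 63.4, 63.1 and 59.9 CPM, Ccnd3 76.96, 55.8 and 54.3 CPM, the kinase Cdk4 559.8, 452 and 449.9 CPM, Ccnd2, the cyclin of neural progenitors, gave 168, 232 and 231 CPM, and Cdk6 gave 9.90, 17.7 and 20.4 CPM. Cdkn1b and Cdk6 were lowest in replicate 1, and Cdkn1c was highest there.

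**Figure D4:**
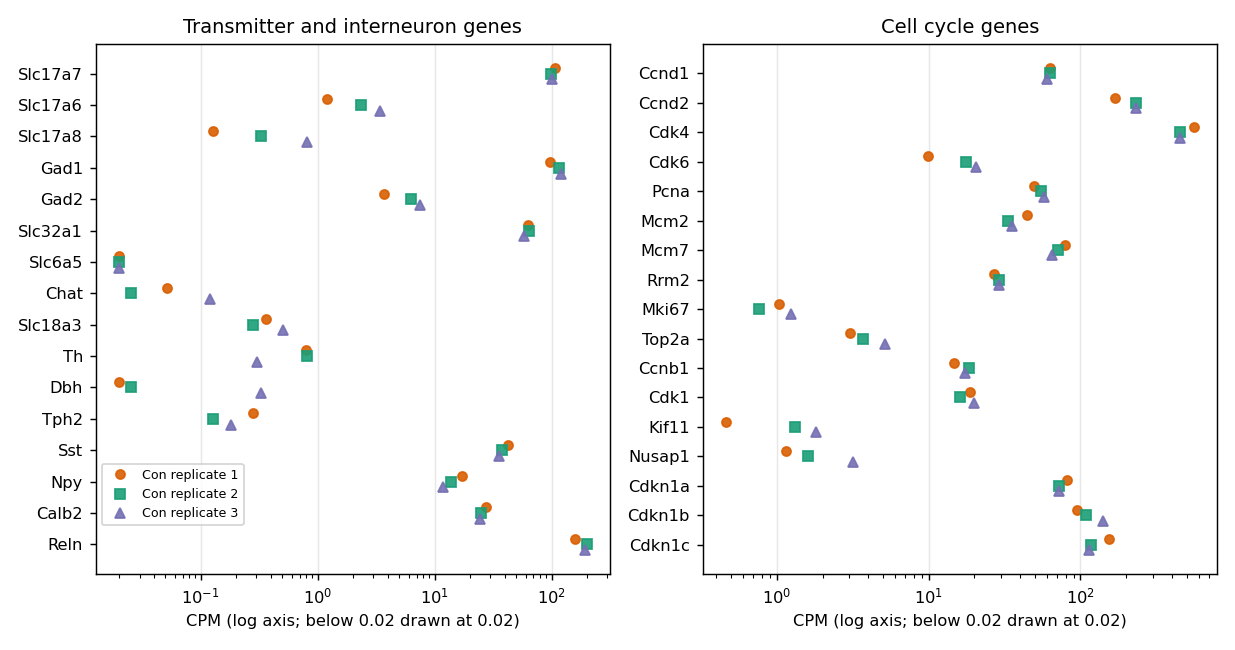
CPM of transmitter and interneuron genes (left) and of cell cycle genes (right) is drawn on log axes with 1 symbol per Con library, and values below 0.02 CPM stand at 0.02. Slc17a7, Gad1 and Slc32a1 lie between 57.98 and 121 CPM while Slc6a5, Chat and Tph2 lie below 1 CPM, and Kif11 and Nusap1 are lowest in replicate 1.

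Targets of FGF, Notch and BMP signaling were measured. FGF signaling turns on its own inhibitors, and all 10 listed genes had a mean of at least 1 CPM, with Spry1 at 12.6, 8.47 and 8.74 CPM, Spry2 at 53.98, 50.9 and 51.6 CPM, Spry4 at 9.02, 9.18 and 8.98 CPM, Dusp6 at 12.4, 15.5 and 18.3 CPM and Etv5 at 77.4, 75.8 and 71.5 CPM. Notch signaling holds back differentiation. Its receptors Notch1 and Notch2 gave 452, 404 and 397 CPM and 127, 115 and 111 CPM, its target Hes5 183, 159 and 157 CPM and its target Hes1 7.22, 6.30 and 6.52 CPM. The BMP targets Id1, Id2, Id3 and Id4 gave 23.5, 26.6 and 21.95 CPM, 165, 170.0 and 188 CPM, 77.5, 72.1 and 63.7 CPM and 75.4, 91.95 and 101 CPM.

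Cholesterol synthesis genes had a summed level of 2926, 3061 and 3081 CPM, and its regulator Srebf2 gave 701, 626 and 614 CPM. The early enzyme Hmgcs1 gave 257, 394 and 482 CPM and the later enzyme Sqle 202, 216 and 208 CPM. Idi1, a middle enzyme, gave 6.27, 8.90 and 14.02 CPM, and Hmgcs1 and Idi1 were lowest in replicate 1. The interferon genes Ifit1, Isg15 and Rsad2 were below 1 CPM in every library, Ifit2 and Ifit3 gave 0.771, 0.864 and 1.35 CPM and 0.411, 0.763 and 0.450 CPM, and 8 of 14 listed genes reached a mean of 1 CPM, with Stat2, a mediator of the response, at 33.3, 33.96 and 29.4 CPM. Of 13 reactive astrocyte genes, 5 reached it, with Serpina3n, a protease inhibitor, at 64.5, 34.8 and 39.6 CPM, highest in replicate 1. Cd44, an adhesion receptor, gave 12.3, 11.5 and 15.6 CPM, Lcn2 had 3, 1 and 0 counts and C3 gave 0.231, 0.280 and 0.360 CPM. The immediate early genes Fos and Egr1 gave 18.8, 14.7 and 14.7 CPM and 40.7, 32.6 and 32.8 CPM, and Npas4, which neuronal activity induces, gave 3.21, 6.84 and 6.10 CPM, lowest in replicate 1. Jun and Fosl2 gave 136, 121 and 109 CPM and 72.3, 70.98 and 67.5 CPM, and Fosb 0.437, 0.356 and 0.631 CPM. Junb (7.53, 5.87 and 3.72 CPM) and Arc (2.62, 1.50 and 1.17 CPM), a synaptic gene, were highest in replicate 1. Of the unfolded protein genes, the chaperone Hspa5 was at 145, 186 and 176 CPM and Ddit3, a factor of prolonged stress, at 9.72, 8.52 and 7.93 CPM. Atf4 and Xbp1, which drive stress responses, gave 108, 93.2 and 92.2 CPM and 84.2, 79.8 and 73.99 CPM, Ddit4 250.4, 226 and 211 CPM, and the chaperone Hsp90b1 23.5, 38.1 and 49.3 CPM, lowest in replicate 1. Among hypoxia and glycolysis genes, Vegfa was at 24.3, 32.1 and 30.00 CPM and Pgk1 at 301, 302 and 281 CPM. Eno1 gave 813, 711 and 675 CPM, Pfkfb3 86.2, 85.1 and 79.1 CPM, Bnip3 27.6, 28.8 and 28.6 CPM and Ankrd37 0.617, 1.27 and 0.811 CPM. The cochaperone Hsph1 gave 92.6, 123 and 122 CPM, and the heat-inducible genes Hspa1a and Hspa1b gave 4.76, 3.99 and 3.90 CPM and 3.01, 1.75 and 1.83 CPM. Both Xist and Y-linked genes were measured. Xist, the RNA of the inactive X chromosome, gave 31.9, 34.8 and 57.4 CPM, and the Y-linked genes Eif2s3y and Kdm5d gave 4.19, 6.15 and 10.5 CPM and 3.16, 3.48 and 7.75 CPM. Xist, Eif2s3y and Kdm5d were highest in replicate 3, and Ddx3y and Uty gave 0.257, 0.229 and 0.390 CPM and 0.154, 0.229 and 0.300 CPM.

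Among genes that differed between the 3 Con libraries, replicate 1 was most often the low library. A gene was called when its highest and lowest library differed by more than 2-fold and the exact 95% Poisson intervals of these counts did not overlap. With 1 group and no second group to set against it, these calls carry no test, and they describe these 3 libraries. Of 12934 genes with a mean of at least 1 CPM, 966 were called (7.47%). Replicate 1 was the library farthest from the mean and low in 632 of them (4.89%) and farthest and high in 34 (0.263%). Replicate 2 was farthest in 35 low (0.271%) and 22 high genes (0.17%), and replicate 3 in 43 low (0.332%) and 200 high genes (1.55%). Replicate 1 was the lowest library in 815 called genes (6.3% of those tested and 84.4% of those called) and the highest in 79 called genes (0.611%). In 721 called genes replicate 1 was the lowest and replicate 3 the highest (5.57%). Without replicate 1, 137 of 12982 genes were called (1.06%), without replicate 2 842 of 12932 (6.51%), and without replicate 3 289 of 12878 (2.24%).

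The biological coefficient of variation, which edgeR estimates as the spread beyond counting error, was 0.166 in the Con group and 0.0799 without replicate 1. It was 0.104 in the Exo group and 0.103 in the pLV-Exo-Wnt5a group. The same rule called 2.7% of genes between the Exo libraries and 2.44% between the pLV-Exo-Wnt5a libraries. Of the genes called in the Con group, 91 of 927 were called in the Exo libraries (9.82%) and 62 of 923 in the pLV-Exo-Wnt5a libraries (6.72%). Calls fell with level, from 21.2% of genes with a mean between 1 and 5 CPM to 0.285% of genes at 100 CPM or more. Over all genes the median deviation of replicate 1 from the gene's mean also ran with level, at -0.12 (log2) between 1 and 5 CPM, -0.09 between 5 and 20 CPM, 0.03 between 20 and 100 CPM and 0.09 at 100 CPM or more.

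The 20 called genes with the largest SD of log2 CPM had means between 1.02 and 3.76 CPM, and replicate 1 was farthest in 15 of the 20. Fam177a2 led them at 7.51, 0.407 and 0.811 CPM, with replicate 1 the high library, and Ermardl1 followed at 0.231, 4.14 and 2.82 CPM, with replicate 1 the low library. Ermardl2 went opposite to Ermardl1, at 4.29, 1.70 and 0.811 CPM. Srp54b, which encodes a signal recognition particle subunit, gave 1.18, 0.102 and 1.77 CPM, and Entpd4b gave 0.771, 5.64 and 1.20 CPM. By their names, Fam177a2, Ermardl1, Ermardl2, Srp54b, Entpd4b and Lipo3 belong to sets of closely related copies. The sources used here name different tools for the processing, so how shared reads were handled is not known. The values of these genes are therefore uncertain. Of the 20, 6 were also called between the Exo libraries and 4 between the pLV-Exo-Wnt5a libraries. Called in both were Fam177a2 (ratios of 12.7 and 20.5), Ermardl1 (7.25 and 4.50) and Zfp715 (4.15 and 2.10). In Col25a1, Rpgr and Ccp110 replicate 1 was the low library. Col25a1, a collagen of neuronal membranes, gave 0.745, 3.56 and 4.44 CPM, Rpgr, a protein of the cilium, 0.565, 2.95 and 3.00 CPM, and Ccp110, which caps centrioles, 1.31, 4.09 and 5.89 CPM. Their ratios were 1.15, 1.53 and 1.25 within the Exo group and 1.94, 1.20 and 1.12 within the pLV-Exo-Wnt5a group. Of the other 12, replicate 1 was the lowest library in Fbxo30, Lipo3, Gm16973, Rsl1, Klhl14, Zfp715, Kcng3, Gtpbp10, Ribc1, Abhd18 and Zfp60, and replicate 2 in Smarca1.

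Among genes with more reads, 38 called genes had a mean of at least 50 CPM, and replicate 1 was the farthest library and the lowest in all of them. Gpm6a, a membrane glycoprotein of growing neurites, gave 349.6, 561 and 719.9 CPM, and its relative Gpm6b 145, 223 and 308 CPM. Wsb1, a ubiquitin ligase subunit, gave 102, 191 and 291 CPM, and Serinc1, a membrane protein, 84.2, 167 and 218 CPM. Mef2c, a transcription factor of cortical neurons, gave 28.4, 57.5 and 64.98 CPM, and Syt4, a synaptotagmin, 27.5, 54.3 and 72.4 CPM. Malat1, a long nuclear RNA, gave 29.5, 53.3 and 68.01 CPM. Snhg11, a non-coding RNA of neurons, gave 47.5, 81.7 and 98.4 CPM. In Gpm6a, Gpm6b, Wsb1, Serinc1, Mef2c, Syt4, Malat1 and Snhg11 replicate 3 was the highest library, and the first 6 of these were chosen after their values were seen. In a list of long non-coding RNAs, 2 of 11 with a mean of at least 1 CPM were called, Malat1 and Snhg11, beside 7.47% of all genes. Between 20 and 100 CPM, where both lay, 2 of 5 were called, beside 2.47% of all genes. Without replicate 1, 0 of 11 were called. Among those not called, Meg3, an imprinted RNA, was at 144, 249 and 265 CPM, Miat at 513, 603 and 570.3 CPM and Neat1 at 5.96, 5.69 and 7.21 CPM.

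Of the ribosomal protein genes 0 of 82 were called, beside 7.47% of all genes and 0.285% of all genes at 100 CPM or more. Of the mitochondrially encoded genes 2 of 12 were called (COX3 and ND3). In the Exo libraries and in the pLV-Exo-Wnt5a libraries 3 of 12 mitochondrially encoded genes were called, beside 2.7% and 2.44% of all genes. The median deviation of all 12934 genes from their own mean was 0.01, 0.00 and -0.01 on the log2 scale. For 82 ribosomal protein genes it was 0.16, -0.06 and -0.10, and replicate 1 was the highest library in 78 of them, against 44.3% of all genes. At 100 CPM or more, where 76 of the 82 lay, replicate 1 was the highest library in 69.9% of all genes, with a median deviation of 0.09. The ribosomal protein genes' share of all counts was 4.35%, 3.87% and 3.76%. The 13 mitochondrially encoded genes took 0.722%, 1.05% and 1.13% of the counts, and replicate 1 was lowest in 9 of 12 with a mean of at least 1 CPM, against 42.8% of all genes. COX3 gave 15.8, 29.4 and 42.7 CPM, ND3 19.4, 28.5 and 40.1 CPM and ND5 1115, 1383 and 1421 CPM, while ND2 gave 749.7, 656 and 857 CPM. The part of these signs of library quality in the differences between libraries was not tested.

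By their medians, neuronal genes were lower and astrocyte genes higher in replicate 1, and the summed neuronal level was 6376, 6471 and 6404 CPM. The median deviation was -0.13, 0.07 and 0.06 for the neuron list and 0.11, -0.05 and -0.07 for the astrocyte list. Of the neuronal genes 11 of 20 and of the astrocyte genes 13 of 19 were at 100 CPM or more, where the median over all genes was 0.09 in replicate 1, close to the astrocyte value. No member of either list was called, and of all genes 0.285% were called at 100 CPM or more. Within the neuron list the direction was mixed, since Tubb3 was highest and Map2 lowest in replicate 1. For the dorsal telencephalic genes the median deviation was -0.09, 0.02 and 0.07 and for the ventral ones 0.05, -0.05 and -0.02. For the replication genes it was 0.13, 0.01 and -0.07, and for the genes of Notch signaling 0.11, -0.07 and -0.05. In all cell type, region, transmitter and cell cycle lists together, the called members were Lhfpl3, Mal, Csf1r, Ctss, Cx3cr1, Col1a1, Prrx1, Aqp1, Shh, Slc17a6, Gad2, Cdk6, Kif11, Nusap1 and Rbl1. They were 3 of 10 microglial, 2 of 9 fibroblast and 2 of 17 G2 and M phase genes, and at most 1 in any other list. Of all genes 7.47% were called, and 21.2% of those between 1 and 5 CPM, so these calls are not read as a result about the lists. Of the called members, Lhfpl3 gave 11.9, 16.96 and 25.2 CPM, Mal 2.18, 1.35 and 3.06 CPM, Ctss 0.977, 1.78 and 2.01 CPM and Prrx1 3.11, 5.85 and 9.04 CPM. The others included Cx3cr1 at 1.03, 0.534 and 1.44 CPM and Csf1r at 1.88, 1.35 and 2.82 CPM, receptors of microglia, which were highest in replicate 3.

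The table also annotates transcription factor families. Of 341 C2H2 zinc finger genes with a mean of at least 1 CPM, 54 were called, 15.8% beside 7.47% of all genes, and replicate 1 was the lowest library in 53 of the 54, against 84.4% of all called genes. Their median deviation was -0.16, 0.02 and 0.08. By level, between 1 and 5 CPM 36 of 95 were called (37.9%, all genes 21.2%), between 5 and 20 CPM 13.8% (all genes 10.3%), and between 20 and 100 CPM 2.56% (all genes 2.47%). Without replicate 1 it was 1.15%, against 1.06% of all genes. Between the Exo libraries 27 of 359 were called (7.52%, all genes 2.7%) and between the pLV-Exo-Wnt5a libraries 15 of 343 (4.37%, all genes 2.44%). ZBTB genes, another zinc finger family, had a like share, with 7 of 46 called (15.2%), of which 6 were lowest in replicate 1. Of the bZIP genes 5 of 43 were called (11.6%), of the MYB genes 2 of 22 (9.09%), and of the factors annotated as others 8 of 71 (11.3%). The share was 4.08% for homeobox genes (2 of 49), which hold most regional factors, 3.23% for bHLH genes (2 of 62), which hold the proneural factors, and 2.56% for HMG genes (1 of 39). The zinc finger group was picked after its values were seen, its members form a large family of related genes, and no test was run on it.

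**Figure D5:**
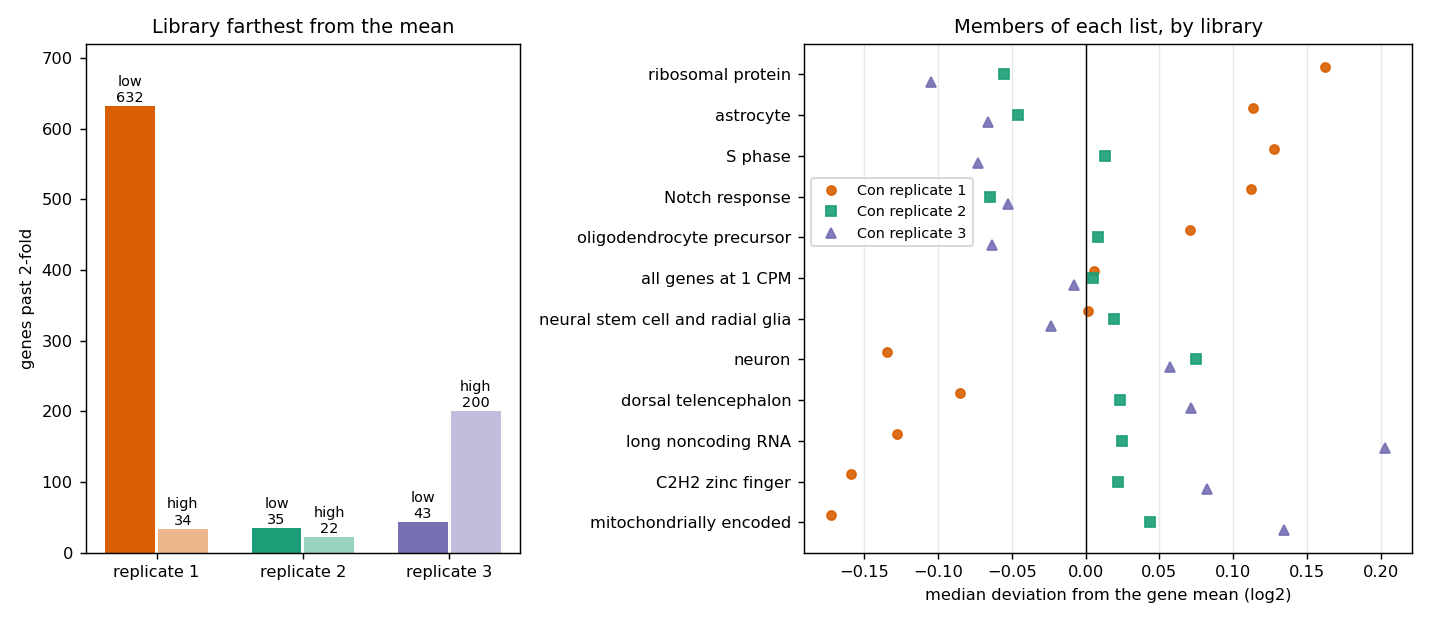
The left panel counts the genes past 2-fold by the library farthest from the gene's mean and by its direction, on an axis from 0, and the right panel gives the median log2 deviation of the members of each list from their own mean, with 1 symbol per library. Replicate 1 is farthest and low in 632 genes, and in the right panel it is the highest symbol for ribosomal protein genes and the lowest for C2H2 zinc finger and mitochondrially encoded genes.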

How the data were processed

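The 3 Con libraries were read from a table of gene counts. According to the study's methods, paired reads were filtered for quality and aligned with HISAT2, whereas the submitters' processing notes name Bowtie2, RSEM (1.3.1) and DESeq2 (1.4.5). The genome build, annotation and use of strand are not given in the sources used here. The values deposited by the authors are unnormalized counts, whole numbers for each gene, and no column was left without a sample. TMM factors and the biological coefficient of variation were computed with edgeR 4.0.16 in R 4.3.3, on each group alone, and log2 CPM used a prior count of 2. Intervals are exact Poisson intervals and cover counting error only. No groups were compared and no test was run. The members and lists were chosen with earlier results of these data known. Genes were named as the 20 highest by CPM, the first 4, the highest and the called members of each list, and the 20 called genes with the largest SD of log2 CPM; list members and called genes beyond these were chosen after their values were seen. Counts of called genes within gene lists by level, without replicate 1 and in the other groups were added after seeing the data. Some genes that this rule names are not reported here. The steps were tested on simulated data. Alternatives were RLE factors, totals only, other filters and folds, thinning to equal depth, and leaving out each replicate.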

Additional observations from a re-analysis of the deposited data

How the results depend on the processing

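The number of genes past 2-fold between the Con libraries (966) stayed within 1.5 times with RLE factors, with library totals only and after thinning to equal depth (959 to 1111). It was 1988 without a filter on the mean, 268 at a mean of at least 10 CPM, 2629 at a fold of 1.5 and 146 at a fold of 3, changes that the rules themselves bring. Leaving out 1 replicate gave between 137 (without replicate 1) and 842 genes, with 289 without replicate 3. The biological coefficient of variation ranged from 0.0799 without replicate 1 to 0.220 without replicate 2, and the median SD of log2 CPM from 0.0699 to 0.182, against 0.166 and 0.158 with all 3; the cause was not tested. The number of genes at 1 CPM in all libraries and the share of the 20 top genes stayed within 1.5 times and 1 SD, and 19 of the 20 top genes were the same without any 1 replicate. With totals only, 48 summed list levels moved by less than 1 SD. Leaving out 1 replicate moved them by more in 8 of 144 cases, and leaving out the highest member in 43 of 48. Ranking by read share per length was not run, since no transcript lengths were at hand. No paired analysis was possible because the report has 1 group and no test. With 3 libraries, genes below about 0.0901 CPM could not be measured at this depth.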
